A study of Mus musculus with 2 samples.

Results

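The genes for receptors of glutamate, GABA, glycine and acetylcholine were examined in live ATAC-seq of Olig2-expressing neural progenitors. The members were the protein-coding genes of the GENCODE mouse annotation (mm10) with a subunit name of the Gria, Grik, Grin, Grid, Grm, Gabra, Gabrb, Gabrg, Gabbr, Glra, Glrb, Chrna, Chrnb or Chrm series. The rule used names and no measured value, although the list was chosen with earlier results of these data known. There were 63 such genes among 21938 protein-coding genes on the autosomes and sex chromosomes. They were covered by 472 of the 119502 accessible intervals (0.395%), which held 82449 counts in replicate 1 and 82902 in replicate 2, or 0.259% and 0.262% of each library.

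ATAC-seq uses the Tn5 transposase to insert sequencing adapters into open chromatin. The cells were neural progenitors (NPs) made from the mouse embryonic stem (ES) cell line Olig2-mKate2, in which the red fluorescent protein mKate2 is expressed together with Olig2, a transcription factor of motor neuron progenitors (pMN). ES cells had been kept on fibroblast feeders with LIF. They received bFGF and LGK first, then bFGF, CHIR99021, SB-431542 and DMH1, and finally 100 nM retinoic acid (RA) with 100 nM SAG, an agonist of the Shh pathway, up to day 5. Live mKate2-positive cells were sorted and 50000 cells entered each transposition. The only group, LIVE_ATAC, held 2 replicates, and it served as a standard for ATAC-seq of fixed, antibody-sorted cells. No control or second condition was analysed here, so levels were compared between genes and between replicates only. The sorted population was a mixture, since the reporter also marks newly born motor neurons and some cells that express NKX2.2 besides OLIG2. A lower level can come from fewer cells with an open site or from less opening per cell, and these cannot be told apart in bulk data.

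Receptors for these transmitters fall into 2 broad kinds. Ionotropic receptors are ion channels built from several subunits, and the subunit mixture sets their ion selectivity, kinetics and drug sensitivity. Metabotropic receptors act through G proteins on a slower time scale. Most of these genes are known for their expression in mature neurons, and a smaller number, such as the subunits of the muscle endplate, for expression outside the nervous system. In spinal motor neurons, glutamate is the main excitatory and glycine and GABA are the main inhibitory inputs, while acetylcholine is the transmitter that the motor neurons release onto muscle.

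The libraries held 31876165 and 31672240 counts in intervals, with a median of 65 and 66 counts per interval. Of the markers of neural progenitors, 7 of 7 had an interval at a transcription start site (TSS), Olig2 itself included, with a median density of 946 normalised counts per kb. For neurons, 6 of 7 had one, with a median density of 645, and the cholinergic enzyme gene Chat was the exception. The lowest of the 6 was Stmn2 with 231. Over all protein-coding genes, 66.7% had a TSS interval, and their median density was 853. Among pluripotency markers 2 of 4 (Zfp42 and Esrrb, not Pou5f1 or Nanog) and among fibroblast markers 2 of 4 (Col1a2 and Thy1) had one, with median densities of 259 and 185. No marker of liver, red blood cells, beta cells or heart (0 of 4) did.

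Promoters of the receptor genes were mostly accessible, at a low level. A TSS interval, meaning a consensus interval that overlapped the start of a protein-coding transcript, was present for 51 of the 63 receptor genes (81.0%, Wilson 95% interval 69.6 to 88.8%). The share over all protein-coding genes was 66.7%. Genes of the Scn, Cacna1 and Kcn name series came to 91 of 112 (81.3%). These encode sodium, calcium and potassium channels and accessory proteins, not all of them voltage-gated. Receptor genes are long (median 99.0 kb, against 17.4 kb over all genes), and among genes of 50 to 500 kb the shares were 30 of 32 (93.8%) for receptor genes and 87.1% for all 4777 genes.

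The level at those promoters was expressed as promoter density, the counts after division by DESeq2 size factors, summed over the TSS intervals of a gene and divided by their length in kb. Among genes with a TSS interval, the median density of the receptor genes was 473 normalised counts per kb in either replicate (SD 0.316, n = 2). The corresponding median over all protein-coding genes was 868 in replicate 1 and 839 in replicate 2, which put the receptor genes at 0.554 ± 0.0136 of it (SD, n = 2). The ratio was 0.620 ± 0.00585 for counts not divided by length and 0.597 among genes of 50 to 500 kb. The Scn, Cacna1 and Kcn genes had a median of 487 ± 8.61, close to that of the receptor genes. Of the 51 receptor genes, 6 lay above the median of all genes, among them Chrnb1, Chrna7, Gria4, Chrnb2 and Gabra5, while 27 lay below the lower quartile of 486. Their TSS intervals were not shorter than those of other genes, with a median of 1502 bp against 1282.5 bp.

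**Figure D1:**
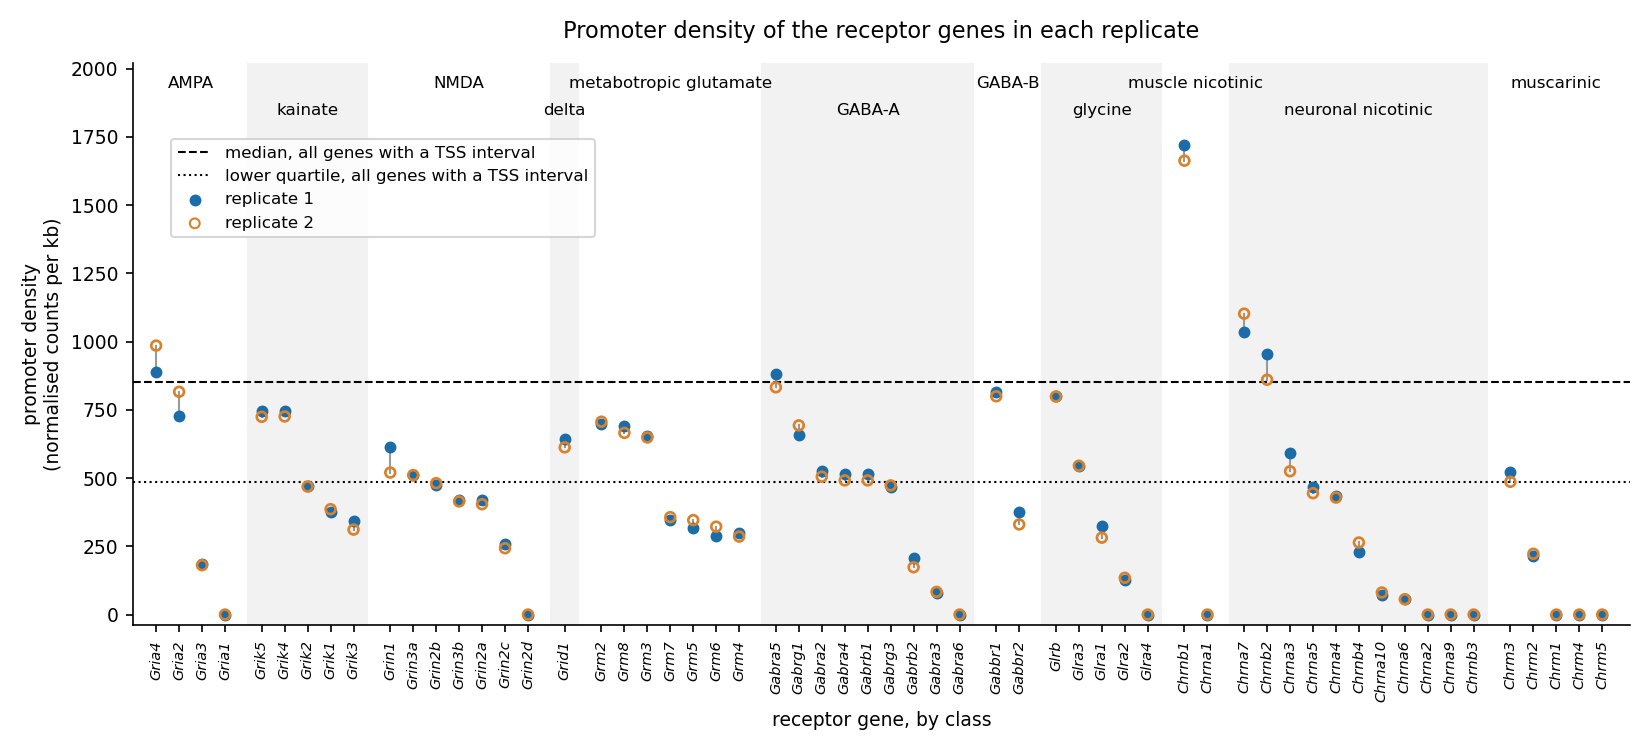
Promoter density (normalised counts per kb) of 58 receptor genes, grouped by receptor class, with replicate 1 as filled and replicate 2 as open circles and genes without a TSS interval at 0. The dashed line is the median and the dotted line the lower quartile of all protein-coding genes with a TSS interval. Chrnb1 is highest at 1691, and the replicates of each gene lie close together.

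Replicates were close for single genes as well. The SD over the replicates was at most 12.5% of the mean density (Gabrb2) and had a median of 2.72%. Differences of several fold between receptor genes, as between Chrnb1 and Chrna6, were therefore far larger than the replicate spread.

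AMPA receptors carry most fast excitatory transmission, and their genes differed widely in level. Gria4 had 890 and 985 normalised counts per kb (937 ± 67.8, SD, n = 2), and Gria2, whose edited subunit makes the channel nearly impermeable to calcium, had 729 and 816 (772 ± 62.0). For both genes replicate 2 was the higher one, and the ranges of the 2 genes did not overlap. Gria3, on the X chromosome, had 184 and 181 normalised counts per kb. Gria1 had no TSS interval, although 21 intervals lay within its gene body.

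Kainate receptor genes all had a TSS interval (5 of 5). Grik5 and Grik4, which encode the high-affinity subunits that need a partner to form channels, were level with each other at 736 ± 16.2 and 736 ± 13.9 normalised counts per kb. The low-affinity subunit genes Grik2 (471 ± 2.62), Grik1 (381 ± 6.49) and Grik3 (327 ± 22.9) were all lower, with no overlap between the replicates of these 3 and those of Grik4 or Grik5. Grik2 had 2 TSS intervals, of 757 and 746 normalised counts per kb at the outer start and 263 and 265 at the inner one. Its place below Grik4 and Grik5 thus rested on joining both, since the outer interval alone (752 ± 8.05) was not below either gene. RefSeq lists a further start of Grik4 45.8 kb inside the gene, and an interval of 512 and 483 normalised counts per kb lay there.

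NMDA receptors are coincidence detectors made of an obligatory GluN1 subunit, encoded by Grin1, and further subunits. At GENCODE starts Grin1 was the highest of its class at 614 and 520 normalised counts per kb. The glycine-binding subunit gene Grin3a followed with 511 in each replicate, Grin2b, the main partner in embryonic neurons, with 475 and 481, and Grin3b with 421 and 414. Grin1 was above Grin3a in both replicates, by much less in replicate 2. Grin2a, which is known to rise after birth, had 418 and 404 normalised counts per kb, and the cerebellar subunit gene Grin2c 258 and 243. Grin2d had no interval at its GENCODE starts. The delta receptor gene Grid1, whose product binds synaptic organisers and is not opened by glutamate in the usual way, had 642 and 613.

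Metabotropic glutamate receptor genes all had a TSS interval (8 of 8). The group II genes Grm2 (702 ± 6.55 normalised counts per kb) and Grm3 (652 ± 4.27), which inhibit adenylyl cyclase, were high for the class. Of the group III genes, which couple in the same way, Grm8 had 678 ± 17.6, and Grm7 (352 ± 7.35), Grm6 (304 ± 25.3) and Grm4 (292 ± 8.74) were lower, with no overlap with the replicates of Grm8. Grm6 is the receptor of retinal ON bipolar cells. Grm5, of group I, which acts through phospholipase C, had 317 and 346.

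GABA-A receptor channels are chloride channels, and most of their genes lie in clusters, which differed in level. In the chromosome 5 cluster all 4 genes had a TSS interval, with Gabrg1 at 676 ± 24.2 normalised counts per kb, Gabra2 at 515 ± 14.7, and Gabra4 and Gabrb1 at 503 ± 16.1. The last pair is not independent, because these genes start head to head under 1 interval of 528 and 505 counts. In the chromosome 7 cluster, Gabra5, which encodes a subunit abundant in the embryonic brain, had 880 and 833, and Gabrg3 had 467 and 473, with no overlap. The chromosome 11 cluster was less accessible, since Gabrb2 was low (207 and 173) and Gabra6 had no TSS interval. Gabra3, on the X chromosome, had 79.9 and 83.0 normalised counts per kb.

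GABA-B receptors need both of their subunits. The gene of the ligand-binding subunit, Gabbr1, had 816 and 800 normalised counts per kb over 2 TSS intervals, and that of the G-protein-coupling subunit, Gabbr2, had 377 and 330. For the glycine receptor, Glrb, which encodes the subunit that anchors the receptor to gephyrin, had 802 and 799. Among the ligand-binding alpha subunits, Glra3 had 543 and 545, Glra1, the adult spinal subunit, 326 and 282, and the embryonic subunit gene Glra2, on the X chromosome, 127 and 135. Glra4 had no TSS interval.

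The X chromosome carries 4 of the receptor genes. The 3 with a TSS interval had 81.5 to 183 normalised counts per kb, while the median over all X-linked genes with one was 505 ± 4.29, also below the median of 853 over all chromosomes. On chromosome 8 the median promoter density of all genes was 1.44 times that of the other autosomes, and Glra3, Chrna6 and Chrnb3 lie there. The part of the chromosome in these levels was not tested.

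Nicotinic receptor genes held both the highest and the lowest promoter of the set. Chrnb1, the beta subunit of the muscle endplate receptor, had 1719 and 1663 normalised counts per kb, which was higher than at 88.8% of all genes with a TSS interval. Its partner Chrna1 had none. Chrna7, the subunit of calcium-permeable homomeric receptors, followed with 1035 and 1102 normalised counts per kb. Chrnb2 had 955 and 860 and Chrna4, with which it forms the main receptor of the brain, 435 and 429. In the chromosome 9 cluster of ganglionic subunits, Chrna3 (592 and 525), Chrna5 (466 and 445) and Chrnb4 (230 and 264) decreased in that order, with no overlap between replicates. The lowest values were those of Chrna10 (75.9 ± 6.87), a subunit of cochlear hair cells, and Chrna6 (56.7 ± 0.860), which is known from dopaminergic neurons. Their intervals held only 109 and 124 counts and 49 and 48 counts. Chrna2, Chrna9 and Chrnb3 had no TSS interval.

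Muscarinic receptors are G-protein-coupled, and 2 of their 5 genes had a TSS interval. Chrm3, which couples to phospholipase C, had 521 and 486 normalised counts per kb, and Chrm2, which inhibits adenylyl cyclase, 216 and 223. No interval lay at the GENCODE starts of Chrm1, Chrm4 and Chrm5. GENCODE gives 1 start for Chrm4, at the coding exon, in a gene record of 1.44 kb. RefSeq places a start 4.53 kb upstream of it, and the interval there (chr2:91921292-91922719) had 938 and 886 normalised counts per kb.

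The absence of a TSS interval in 12 receptor genes depended on the annotation for some of them. No consensus peak was present at their GENCODE starts, which does not amount to a count of 0. For 6 of the 12 (Gria1, Grin2d, Chrm4, Chrm5, Chrna9 and Chrnb3) an interval lay within 1 kb of a start, which brought the share to 57 of 63 (90.5%), with 70.8% over all genes. With RefSeq mRNA starts of the same assembly added, Chrm4, Grin2d and Gria1 gained an interval (54 of 63, 85.7%; all genes 68.3%). Grin2d gained one of 947 and 886 normalised counts per kb (chr7:45865960-45866801), above the promoter density of every NMDA receptor gene at GENCODE starts, whereas that of Gria1 (chr11:57011520-57011774) had only 20 and 24 counts. When only the outermost start of each gene was used, 6 genes lost theirs, among them Chrna5, Gabra3 and Grm4.

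Genes without a TSS interval still had accessible sites. The strongest interval by normalised count was in an intron of Gria1 (282 and 256 counts), Chrna9 (312 and 332), Chrna2 (161 and 175) and Chrna1 (178 and 129). In Grin2d it was the start of the neighbouring gene Kdelr1 (912 and 906 counts), which lies within an intron of Grin2d. In Chrm4 it was a short interval of 246 bp in the coding exon (236 and 246 counts), with 960 and 1000 normalised counts per kb. In Chrm1 (109 and 114 counts), Gabra6 (77 and 99), Glra4 (63 and 50) and Chrnb3 (35 and 43) the strongest interval was weaker than most receptor TSS intervals. Chrm5 had no interval within its gene at all.

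At GENCODE starts, promoter sequence differed between receptor genes with and without a TSS interval. CpG-rich starts, defined by an observed over expected CpG ratio above 0.6 and a GC content above 50% within 250 bases on either side of the start, are typical of widely used promoters. For a gene with several starts, only the one with the highest CpG ratio was judged, whereas promoter density covers all its TSS intervals. CpG-rich starts were found for 32 of the 63 receptor genes, 50.8% against 54.6% of all genes. All 32 had a TSS interval, as did 98.5% of all CpG-rich genes. None of the 12 receptor genes without one was CpG-rich at its GENCODE starts, the only starts judged. The RefSeq starts at which Chrm4, Grin2d and Gria1 gained an interval were not judged, so their class there is not known. Among starts that were not CpG-rich, 19 of 31 receptor genes (61.3%) had a TSS interval, against 29.2% of all such genes.

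To show this difference, the 250 bases before the RefSeq start are given for Chrna7, whose whole stretch lay in its TSS interval (chr7:63211810-63212907), and for Gabra6, a subunit gene of cerebellar granule cells with no TSS interval. Both are read 5′ to 3′ on the minus strand of GRCm38.p6, the assembly of mm10, at chr7:63212527-63212776 and chr11:42321073-42321322, as given by RefSeq. Capitals mark CpG dinucleotides, 25 in Chrna7 and 2 in Gabra6.
Chrna7: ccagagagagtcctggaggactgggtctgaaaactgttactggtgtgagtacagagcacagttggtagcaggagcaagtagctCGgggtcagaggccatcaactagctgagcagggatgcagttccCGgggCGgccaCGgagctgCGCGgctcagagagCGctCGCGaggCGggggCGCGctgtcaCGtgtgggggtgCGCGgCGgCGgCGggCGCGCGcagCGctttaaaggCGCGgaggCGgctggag
Gabra6: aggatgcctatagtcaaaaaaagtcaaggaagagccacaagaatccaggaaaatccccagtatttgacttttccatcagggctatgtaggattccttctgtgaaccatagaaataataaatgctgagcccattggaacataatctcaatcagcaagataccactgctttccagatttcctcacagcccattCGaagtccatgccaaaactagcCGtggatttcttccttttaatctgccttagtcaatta

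The level at CpG-rich starts was lower in receptor genes than over all genes. The median density of CpG-rich receptor genes was 507 normalised counts per kb, far below the 957 of all CpG-rich genes with a TSS interval. Where the start was not CpG-rich, receptor genes with an interval had 332, near the 309 of all such genes. Across the 51 genes Spearman's rho between CpG ratio and density was 0.34, and 0.41 across all genes with a TSS interval, over the same libraries and given as a description. Grik5 (736 ± 16.2), Grm8 (678 ± 17.6) and Gabrg1 (676 ± 24.2) had the highest promoter densities among receptor genes not classed as CpG-rich.

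**Figure D2:**
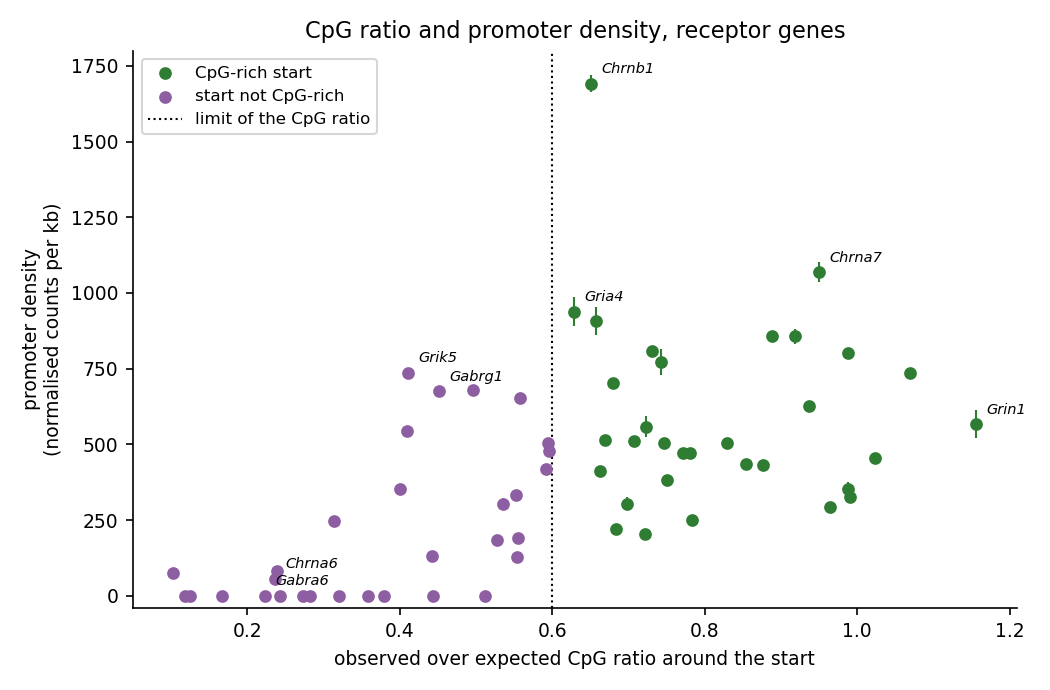
Promoter density (normalised counts per kb) against the observed over expected CpG ratio within 250 bases of the GENCODE start with the highest ratio, for the 63 receptor genes. Points are means of the 2 replicates, vertical lines join the replicates, and the dotted line is the ratio of 0.6. All genes at 0 lie left of the line, where Grik5 is highest at 736, and Chrnb1 is highest to its right at 1691.

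RE1 is the binding motif of REST, a repressor that keeps neuronal genes silent in other cells and in progenitors. A 17-base form of the motif, with 14 constrained positions, was searched on both strands in whole intervals. A match with no mismatch lay in 7 of the 53 TSS intervals of receptor genes (13.2%, Wilson 95% interval 6.55 to 24.8%). It was found in 104 of all 14870 TSS intervals (0.699%). With 1 mismatch allowed the counts were 11 of 53 (20.8%) and 868 of 14870 (5.84%). The receptor intervals were somewhat longer, with a median of 1423 bp against 1212 bp. In the 300-base RefSeq promoter windows, which are narrower, 1 of 52 receptor windows (1.92%, Gria2) and 13 of 20150 in all (0.0645%) held a match with no mismatch. With 1 mismatch allowed these windows came to 1 of 52 (1.92%) and 217 of 20150 (1.08%).

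The sites of 5 genes are printed to show the matches on which these counts rest. They are read 5′ to 3′ in the orientation of the motif from GRCm38, and capitals mark the constrained positions. The site of Chrnb2 is at chr3:89764458-89764474 (minus strand), of Glra1 at chr11:55607937-55607953 (plus), of Glra3 at chr8:55940764-55940780 (minus), of Gria2 at chr3:80802989-80803005 (plus) and of Grin1 at chr2:25319018-25319034 (minus).
Chrnb2: tTCAGCACCacGGACAG
Glra1: tTCAGCACCacGGAGAG
Glra3: tTCAGCACCtcAGACAG
Gria2: tTTAGCACCgcGGACAG
Grin1: tTCAGCACCtcGGACAG

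These 5 genes had no common level. Their promoter densities ran from 304 ± 31.2 normalised counts per kb for Glra1 to 908 ± 66.7 for Chrnb2. Each of these sites lay within 0.255 kb of a start of its gene, and the nearest, in Grin1, was 0.061 kb away. The sites of Chrnb2 and Grin1 were 41 and 23 bases from the middle of their intervals, and that of Glra3 was 250 bases away. A match with 1 mismatch was present in the TSS intervals of Chrm3, Chrna7, Grid1 and Grin3b. Whether REST was bound was not measured.

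In Gria2 the match lay upstream of the start. The 250 bases before its RefSeq start (chr3:80802836-80803085, minus strand, GRCm38.p6) are given 5′ to 3′ on the strand of the gene, with the RE1 site in capitals, here in reverse complement.
Gria2: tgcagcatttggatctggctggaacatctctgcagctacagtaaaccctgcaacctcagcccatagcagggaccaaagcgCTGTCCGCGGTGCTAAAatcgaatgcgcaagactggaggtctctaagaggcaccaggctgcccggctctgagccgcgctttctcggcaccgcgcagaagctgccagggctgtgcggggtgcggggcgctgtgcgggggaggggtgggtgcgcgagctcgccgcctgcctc

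**Figure D3:**
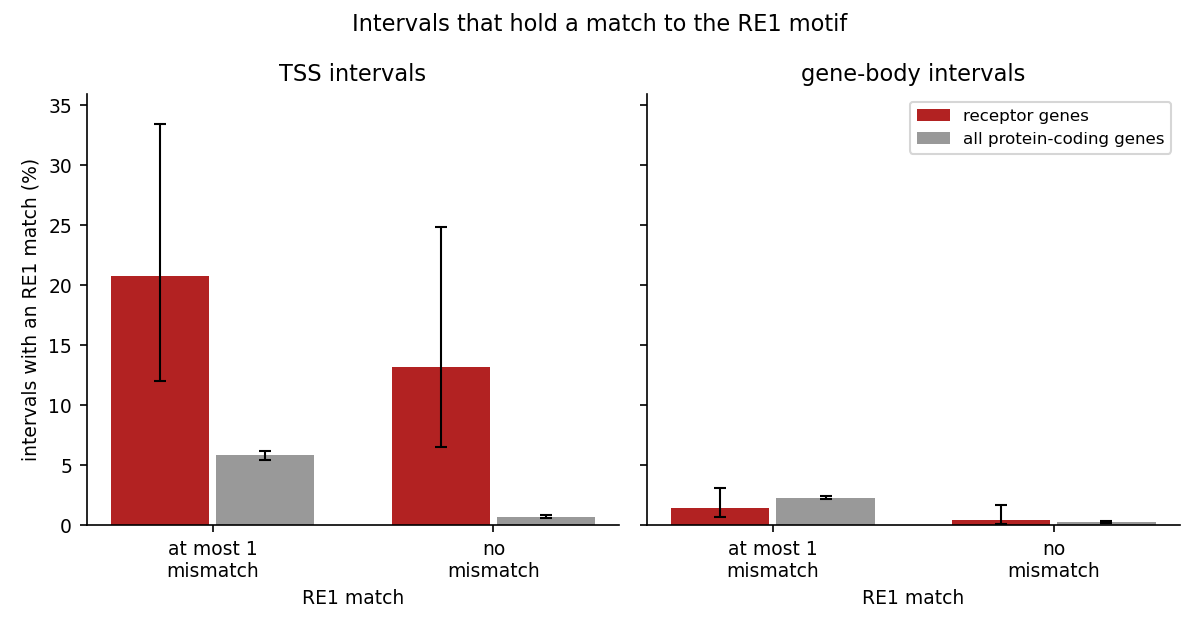
Share (%) of intervals that hold an RE1 match with at most 1 mismatch or with none, for receptor genes (red) and all protein-coding genes (grey), with Wilson 95% intervals for counting error. Among TSS intervals the receptor bars (20.8% and 13.2%) stand above those of all genes (5.84% and 0.699%), and among gene-body intervals all 4 bars are below 3%.

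Outside the promoters few receptor intervals held the motif. Of 417 gene-body intervals, 6 (1.44%) held a match with at most 1 mismatch, against 2.32% of all 54305, and 2 (0.480%, against 0.273%) held one with none. These were in introns of Grik3 (chr4:125590694-125590710, plus strand, in an interval of 126 and 128 counts) and of Grm4 (chr17:27466831-27466847, minus strand, 122 and 132 counts).
Grik3: aTCAGCACCtcGGAGAG
Grm4: tTCAGCACCtcGGAGAG

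Short motifs of other factors were counted in the same windows. CAGATG, an E-box read by proneural and Olig factors among others, was in 2 of 52 receptor promoter windows (3.85%) and 14.3% of all, and in 144 of 417 windows of 300 bases in the middle of gene-body intervals (34.5%) and 29.3% of all. CATATG was in 0 of 52 (3.00% of all) and 6.24% (5.45% of all). The homeodomain core TAATTA was in 3 of 52 (5.77%, against 4.48%) and 7.67% (7.13%). The cAMP response element TGACGTCA was in 0 of 52 (2.31% of all) and 1 of 417 (0.240%, against 0.324%). All were searched on both strands and overlapping matches were allowed. RefSeq windows were at hand for 44 of the 63 genes.

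Within gene bodies the receptor genes carried many intervals, but few for their length. A gene-body interval overlapped the gene record and no protein-coding start. There were 417 of them, and 57 of the 63 genes had at least 1. Counting an interval once for each gene it lies in, the pooled rate was 3.01 per 100 kb, against 5.25 over all protein-coding genes, and 0.813 against 1.59 for intervals with a mean normalised count over 100. Among genes of 50 to 500 kb it was 3.45 against 5.66. Of the 417 intervals, 370 (88.7%) were intronic, 35 were in coding exons and 12 in UTRs. They lay a median of 96.9 kb from a start of their own gene, and 205 (49.2%) were over 100 kb away, while 50 were within 10 kb. Their median density was 105 ± 0.248 normalised counts per kb, against 120 ± 2.15 for all gene-body intervals.

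The number of intervals followed gene length, with large exceptions. Spearman's rho between the 2 was 0.79 over the 63 genes and 0.72 over all genes, as a description. Grik4 had 38 gene-body intervals in 426.4 kb (8.91 per 100 kb), Grik3 22 in 223.5 kb (9.84) and Grm4 16 in 99.0 kb (16.2), all above the rate over all genes. Grik2, by contrast, had only 9 in 693.9 kb. By class, kainate genes had 4.61 and AMPA genes 4.29 per 100 kb, and GABA-A genes had 1.94. Shorter genes gave the highest rates, as for neuronal nicotinic genes with 6.69.

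**Figure D4:**
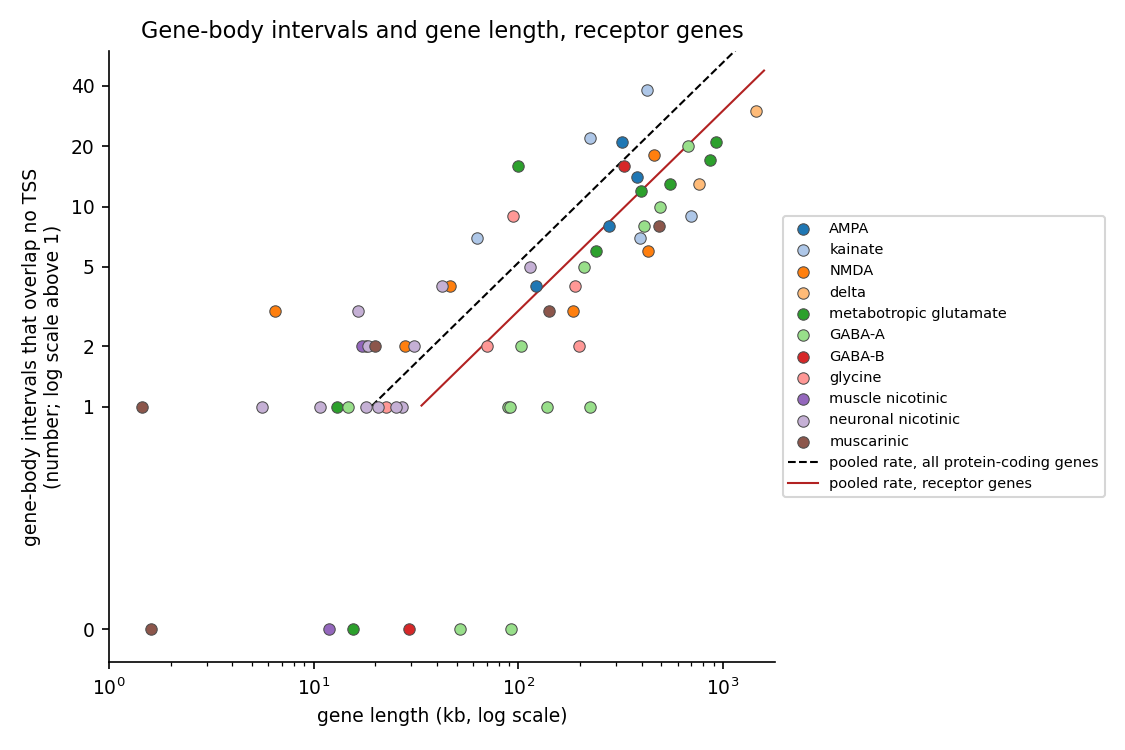
Number of gene-body intervals that overlap no TSS against gene length (kb, log scale) for the 63 receptor genes, coloured by class, with the vertical axis linear from 0 to 1 and on a log scale above. Lines show the pooled rates of 5.25 per 100 kb over all protein-coding genes (dashed) and 3.01 over receptor genes (solid). Most long genes lie below the dashed line, and Grik4 with 38 intervals and Grik3 with 22 lie above it.

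A few gene-body intervals exceeded the median promoter density of all genes with a TSS interval, which was 853 normalised counts per kb. The highest was in an intron of Grm7 (chr6:111276545-111277325, 218.4 kb from the nearest start), with 1231 and 1399 normalised counts per kb, while the promoter of Grm7 had 346 and 357. The interval was far from any start of the gene and exceeded the promoter in both replicates. An interval in the coding exon of Chrm4 had 960 and 1000, one in an intron of Grm4, 1.94 kb from a start, 949 and 938, and that at the RefSeq start of Grin2d 947 and 886. Below that median were intervals in Chrna7 (819 and 814, 97.9 kb from the start), Grid1 (777 and 739), Gria1 (705 and 640, 285.2 kb from a start) and Grik3 (569 and 660).

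The middle 200 bases of this highest interval, in Grm7, are given 5′ to 3′ on the plus strand of GRCm38.p6 (chr6:111276836-111277035). Capitals mark the E-box CAGATG, of which the whole interval held 2 matches on either strand.
Grm7: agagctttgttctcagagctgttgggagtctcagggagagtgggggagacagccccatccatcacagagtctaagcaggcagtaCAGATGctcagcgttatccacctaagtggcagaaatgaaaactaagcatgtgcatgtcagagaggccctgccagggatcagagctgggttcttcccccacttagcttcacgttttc

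Unlike the Chrna7 promoter, this stretch was poor in CpG, with 2 dinucleotides in 200 bases.

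The question of how far the 2 libraries matched at these genes was answered by counts and by a test. Of the 472 receptor intervals, 166 had a mean normalised count over 100, and 0 of them differed over 2-fold between replicates (0% of the 46369 such intervals in all). Over 1.5-fold apart were 0 of the 166, against 0.0949% of all such intervals. The SD of the log2 ratio of the 166, taken after adding a pseudocount of 1, was 0.15, against 0.14 over all intervals of that size. The two-sided exact binomial test with Benjamini-Hochberg adjustment over all intervals called 0 of the 472 (0% of all 119502) at a limit of 0.01, and the lowest adjusted p was 0.308. At an unadjusted p under 0.05 it gave 30 of 472 (6.36%), against 7.84% of all intervals. This test compares the libraries and no conditions, and its p-values measure only departure from counting error between these 2 libraries. The labels do not say whether the replicates were separate cultures. No receptor interval had a count of 0 in either library.

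Among the 5 largest differences of these 166, all in introns, 4 are given here. Chrna1 had 178 and 129 counts (log2 ratio of replicate 2 over 1 of -0.46), and Grin2b 92 and 127 (0.46). Grin3a had 122 and 92 counts (-0.40) and Gabrg3 110 and 143 (0.37). Both directions occurred, and with intervals down to a mean of 10 included, 8 of 452 were over 2-fold apart (1.77%, against 1.95% of all 115137 intervals).

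**Figure D5:**
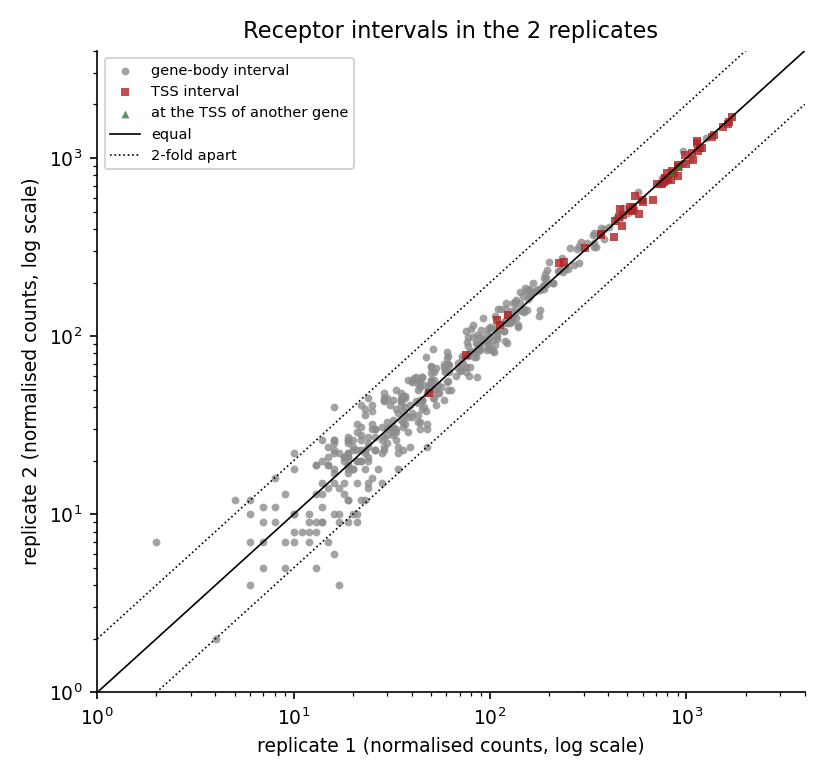
Normalised counts of the 472 receptor intervals in replicate 1 and replicate 2 (both log scale), with TSS intervals as red squares, gene-body intervals as grey circles and the 2 intervals at a start of another gene as green triangles. The solid line marks equality and the dotted lines a 2-fold difference. All TSS intervals lie within the dotted lines, and the points outside them have low counts.

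Genes that work with these receptors were examined as 3 further lists. Of the scaffolds and auxiliary subunits, 28 of 32 (87.5%) had a TSS interval, with a median density of 544 ± 13.8 normalised counts per kb, and 8 of the 28 were above the median of all genes. The highest were Dlg4 (1603 ± 59.4), which encodes the postsynaptic scaffold PSD-95, Homer1 (1556 ± 62.9), which links group I metabotropic receptors to calcium stores, and Gphn (1532 and 1496), which encodes gephyrin. The AMPA receptor partner gene Cacng2 had 1403 and 1302, whereas Rapsn, the scaffold of the muscle receptor, had 66.4 and 87.8 and Musk had no TSS interval.

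Of the genes for transmitter synthesis and transport, 12 of 14 (85.7%) had a TSS interval, against 66.7% of all protein-coding genes. The median of the 12 was 363 ± 27.4, and 0 of the 12 were above the median of all genes. The vesicular carriers differed in level. Slc17a6 (222 ± 10.9) and Slc32a1 (202 ± 2.15), for glutamate and for GABA and glycine, were low. Slc17a7 was higher, with 567 and 604 normalised counts per kb, and Slc18a3 had 309 and 291. Chat and Slc17a8 had no TSS interval. Of 12 further receptor subunit genes, only 4 had a TSS interval (33.3%, against 66.7% of all protein-coding genes). These were Gabrd, Gabre, Gabrq and Htr3a, with a median of 210 ± 6.91. The remaining subunits of the muscle receptor, Chrnd, Chrne and Chrng, had no interval at their GENCODE starts. Chrnb1 was thus the only endplate subunit gene with a TSS interval at GENCODE starts. Other definitions of the start are not reported for Chrnd, Chrne and Chrng.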

How the data were processed

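The authors aligned the reads to mm10 and called peaks with MACS in the nf-core atacseq pipeline. Consensus intervals came from peaks of at least 2 replicates of 5 libraries. The deposited values are raw fragment counts per interval, made per the file headers with featureCounts 2.0.1 on read pairs, where a fragment counts in every interval it overlaps by a fraction of 0.2. The 3 columns of libraries that belong to no sample here were not used, although those libraries helped to define the intervals.

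Counts (31876165 and 31672240) were scaled by size factors from DESeq2 1.42.0 (0.9996 and 1.0004) and set per kb of interval. GENCODE M21 gave genes and starts; RefSeq (GRCm38.p6) gave sequences and added starts, and all 63 genes matched by symbol. Overlap was at least 1 bp. There is 1 group, so no model could be fitted, and the exact binomial test compares the libraries. It was checked on simulated Poisson counts, which carry no variation beyond counting error. Fragments carried no molecular identifiers. The Wilson intervals treat the genes or intervals of a fixed list as a sample, and they do not cover variation between libraries. Software was edgeR 4.0.16, pysam 0.24.0, scipy 1.17.1, pandas 2.3.3 and Python 3.11.15.

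The members and lists were chosen with earlier results of these data known. Named were the members, the 10 gene-body intervals of highest density, the 5 receptor intervals with the largest log2 difference, the strongest interval of each gene without a TSS interval, and RE1 matches. The genes named from the other lists were chosen after their values were seen. A few genes covered by this choice have been left out of the text and are not described here. Alternatives covered normalisation, filters on low counts, the definition of a TSS, undivided counts instead of densities, and dropping 1 replicate at a time.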

Additional observations from a re-analysis of the deposited data

How the results depend on the processing

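Size factors of edgeR TMM or total counts in place of those of DESeq2 changed no result of the receptor genes by more than the replicate spread and moved the promoter density of 0 of 63 genes. Leaving out either replicate gave a median promoter density of 404 to 418 over all 63 genes and of 472.8 to 473.2 over those with a TSS interval, a ratio to all genes of 0.545 to 0.564, and a median gene-body density of 105.2 to 105.6. With intervals within 1 kb of a start, 90.5% of receptor genes had one, these medians were 432 and 468 and the ratio 0.579. With the outermost start only they were 346, 503 and 0.569, and the density of 9 of 63 genes moved. For counts in place of density they were 539, 734 and 0.620. Alternatives chosen after seeing the data gave 93.8% with a TSS interval and a ratio of 0.597 for genes of 50 to 500 kb, and a median of 489 for autosomal genes. A mean normalised count over 100 left 113 gene-body intervals, 0.813 per 100 kb, fewer by construction. A mean of at least 10 gave a median gene-body density of 111 and 8 intervals over 2-fold apart, and the median gene-body count was 48.0. No paired analysis was possible because the samples form 1 group. Depth limited the weakest promoters, such as Chrna6 with 49 and 48 counts.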
